A study of Mus musculus with 9 samples.

Results

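The genes described here belong to the cholesterol synthesis pathway under control of the sterol regulatory element binding proteins (SREBPs). They are Hmgcs1, Idi1, Fdps, Fdft1, Sqle, Lss and Cyp51, which encode enzymes of the pathway, and Insig1, which encodes a sterol-dependent regulator of it. They were listed by name for their place in the pathway, with earlier results of these data known, so counts over the list are descriptive. Each was measured by the probe sets whose platform annotation gives that symbol and no other. On these terms 7 of the 8 genes were measured, by 19 of the 22690 probe sets, among 12393 genes with such a probe set. Insig1 had none and is not analysed here beyond its promoter. The 8 hold no receptor or transporter for cholesterol uptake, so uptake genes are described from a longer list further on.

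RNA was hybridised to Affymetrix mouse arrays in 3 lines with 3 arrays each. SV5-NN4 is a stable NIH 3T3 clone that expresses large T antigen of simian virus 40 (SV40) together with wild-type Nras. SV5 is a stable clone transformed by SV40 large T antigen without the added Nras, and NIH 3T3, a mouse embryo fibroblast line, is the wild-type parent of both. All lines grew in medium with calf serum, which supplies lipoprotein cholesterol. Each transformed line is 1 clone, so the introduced gene and other differences between clones cannot be told apart. All 9 fibroblast markers were measured, and Vim, which encodes vimentin, and Col1a2, a collagen chain, were among the bright ones. In SV5 against NIH 3T3, 6 of the 9 had positive differences (median 0.25) and 0 were called, where 0.0484% of all genes were. In SV5-NN4 against SV5, 8 of the 9 had negative differences, with a median of -1.05. There 3 fell, where 1.05% of all genes were called. These were Pdgfra, a receptor for platelet-derived growth factor (-2.1, limma adjusted p = 0.0032), Thy1, a surface glycoprotein (-1.39, adjusted p = 0.0056), and Col3a1, a collagen chain (-1.05, adjusted p = 0.034). In SV5-NN4 against NIH 3T3 the median was -0.47 and 2 fell, Thy1 (-2.09, adjusted p = 0.0018) and Pdgfra (-1.2, adjusted p = 0.022), where 1.96% of all genes were called. In a limma fit without replicate number as a block, adjusted p against SV5 was 0.17 for Pdgfra, 0.023 for Thy1 and 0.31 for Col3a1. Against NIH 3T3 it was 0.0014 for Thy1 and 0.66 for Pdgfra. Second probe sets differed from SV5 by -0.7 for Pdgfra and -1.35 for Col3a1, and from NIH 3T3 by -0.27 for Pdgfra. For Col1a1, a collagen chain, SV5 against NIH 3T3 gave 1.01 at the brightest probe set and -0.78 at the other. The 13 epithelial, leukocyte and endothelial markers had line means between 3.54 and 5.6 on the log2 scale. All of these lay below the 5.93 of the median probe set.

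Cholesterol is built from acetyl-CoA by way of mevalonate, isoprenoid diphosphates, squalene and lanosterol. When sterols in the endoplasmic reticulum are low, the escort protein Scap carries SREBPs to the Golgi, where they are cleaved, and the freed domain enters the nucleus and activates genes of synthesis and uptake. When sterols are plentiful, Insig proteins hold Scap and SREBPs back, so that the enzymes of the pathway commonly move together. The isoprenoid made by Fdps is also the source of the lipid that anchors Ras proteins to membranes.

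RefSeq promoters, spanning 250 bases before to 50 after the gene start on GRCm38.p6, were available for 5 of the 8 genes (Hmgcs1, Idi1, Lss, Cyp51 and Insig1). The core of a sterol regulatory element, written TCACCNCA and searched on both strands, was in 2 of these 5, Hmgcs1 and Cyp51, and in 4.42% of 32851 promoters of the same length. Those 2 are shown because they hold that core. The Hmgcs1 window lies at chr13:119690101-119690400 on the plus strand and the Cyp51 window at chr5:4104648-4104947 on the minus strand. Capitals mark every match on either strand to the sterol core, to the nuclear factor Y box CCAAT and to the Sp1 box GGGCGG.
Hmgcs1: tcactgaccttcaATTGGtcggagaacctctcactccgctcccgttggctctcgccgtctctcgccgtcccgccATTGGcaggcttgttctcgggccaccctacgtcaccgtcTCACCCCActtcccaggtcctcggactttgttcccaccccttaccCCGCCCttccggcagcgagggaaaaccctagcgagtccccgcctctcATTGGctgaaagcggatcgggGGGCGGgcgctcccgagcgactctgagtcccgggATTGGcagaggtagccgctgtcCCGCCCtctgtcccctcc
Cyp51: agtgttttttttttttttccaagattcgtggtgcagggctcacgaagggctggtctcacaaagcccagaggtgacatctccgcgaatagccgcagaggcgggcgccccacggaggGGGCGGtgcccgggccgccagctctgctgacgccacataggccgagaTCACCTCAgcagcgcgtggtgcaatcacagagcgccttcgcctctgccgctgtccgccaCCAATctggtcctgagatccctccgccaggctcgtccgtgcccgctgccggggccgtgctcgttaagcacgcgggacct
In Hmgcs1 the core reads TCACCCCA and starts 137 bases before the gene start, and in Cyp51 it reads TCACCTCA and starts 88 bases before it. CCAAT was in 5 of 5 of these promoters and in 37.4% of all, and GGGCGG in 5 of 5 and in 35.7% of all. The E-box CACGTG was in 1 of the 5, Insig1, and in 7.15% of all. None of these motifs overlapped another in the 2 windows shown. A match describes the letters only and is no evidence of binding.

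Values are the deposited intensities, and differences are on the log2(intensity + 1) scale from limma, run on all probe sets of all 9 arrays with replicate number blocked. A gene counts as called at an adjusted p under 0.05 over all 22690 probe sets. Each gene is described first at its brightest probe set, with arrays given as replicates 1, 2 and 3.

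Hmgcs1 encodes the synthase that makes HMG-CoA, the precursor of mevalonate. Its intensity was 2572, 3464 and 3476 in SV5-NN4, 3447, 3842 and 4317 in SV5, and 3599, 4148 and 4938 in NIH 3T3. Every SV5-NN4 array lay below every NIH 3T3 array, while SV5 overlapped both of the other lines. The mean log2 level was 11.62 ± 0.25 in SV5-NN4, 11.91 ± 0.16 in SV5 and 12.03 ± 0.23 in NIH 3T3 (SD, n = 3 each).

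Idi1 encodes the isomerase that interconverts the isoprenoid building blocks. Its intensity was 1145, 679.1 and 1148 in SV5-NN4, 1291, 729.8 and 1073 in SV5, and 1731, 506.5 and 1155 in NIH 3T3. The lines overlapped fully, and replicate 2 was the dimmest array in each of them.

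Fdps encodes farnesyl diphosphate synthase. It read 179.5, 115.1 and 899 in SV5-NN4, 316.3, 272.9 and 1144 in SV5, and 123.7, 160 and 934.6 in NIH 3T3. Replicate 3 was far above the other arrays in every line, and within each replicate number SV5 was the brightest line. The mean log2 level was 8.06 ± 1.55 in SV5-NN4, 8.86 ± 1.14 in SV5 and 8.05 ± 1.58 in NIH 3T3 (SD, n = 3 each).

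Fdft1 encodes squalene synthase, the first enzyme committed to sterols. It read 484.4, 894 and 639.9 in SV5-NN4, 735.6, 818.4 and 576.5 in SV5, and 423.6, 1312 and 1301 in NIH 3T3. Replicates 2 and 3 of NIH 3T3 were the brightest arrays and its replicate 1 the dimmest of all 9, so the lines overlapped.

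Sqle encodes squalene epoxidase, a rate-limiting step of the sterol branch. It read 819.1, 534.2 and 1340 in SV5-NN4, 1211, 814.9 and 2089 in SV5, and 769, 453.7 and 1505 in NIH 3T3. Within each replicate number the SV5 array was the brightest, but over all arrays the lines overlapped. The mean log2 level was 9.71 ± 0.66 in SV5-NN4, 10.31 ± 0.68 in SV5 and 9.66 ± 0.87 in NIH 3T3 (SD, n = 3 each).

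Lss encodes lanosterol synthase, which closes the sterol rings. It read 558.8, 917 and 647.1 in SV5-NN4, 607.4, 587.7 and 477.9 in SV5, and 566.1, 902.1 and 699.7 in NIH 3T3. The SV5 array was the dimmest of its replicate number for replicates 2 and 3 and the brightest for replicate 1.

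Cyp51 encodes lanosterol demethylase. It read 647.1, 306 and 1019 in SV5-NN4, 768.7, 364.9 and 913.7 in SV5, and 783.1, 260.5 and 1060 in NIH 3T3. The arrays of one replicate number lay close together in all lines, with replicate 2 the dimmest and replicate 3 the brightest.

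**Figure D1:**
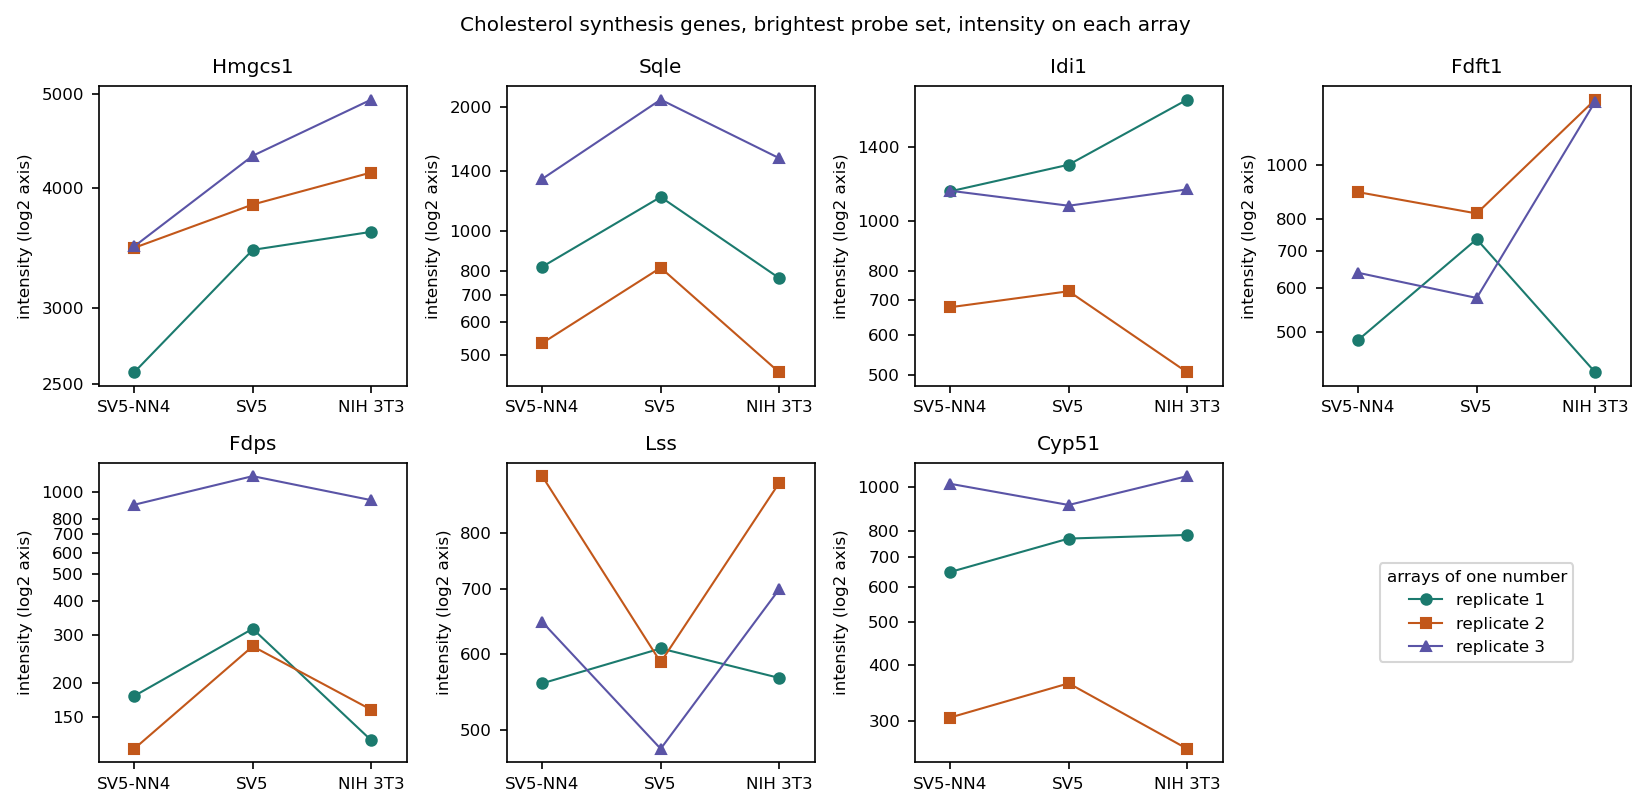
Intensity (log2 axis, arbitrary units) of the 7 measured genes at their brightest probe set on each of the 9 arrays, with SV5-NN4, SV5 and NIH 3T3 from left to right and lines joining arrays of one replicate number. Sqle and Fdps peak in SV5 within every replicate number, Hmgcs1 is dimmest in SV5-NN4, and Cyp51 is separated mainly by replicate number.

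Arrays of the same number resembled each other across lines, so replicate number was a larger source of spread than line for most of these genes. It took 96.1% of the sum of squares for Cyp51, 87.1% for Fdps, 85.2% for Idi1 and 79.3% for Sqle. Line took 0.434% for Cyp51, 0.308% for Idi1, 9.36% for Fdps and 19.4% for Sqle. At the brightest probe sets, Hmgcs1 was the one gene of the 7 with a larger share for line, 49.5%, than for replicate number, 45.5%. Among dimmer probe sets, the second of Idi1 had 66.8% for line and 5.61% for replicate number, and the others of Cyp51 had 35.3% and 63.5% for line against 26% and 23.9% for replicate number. Over all probe sets together the shares were 21.8% for line and 61.1% for replicate number.

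**Figure D2:**
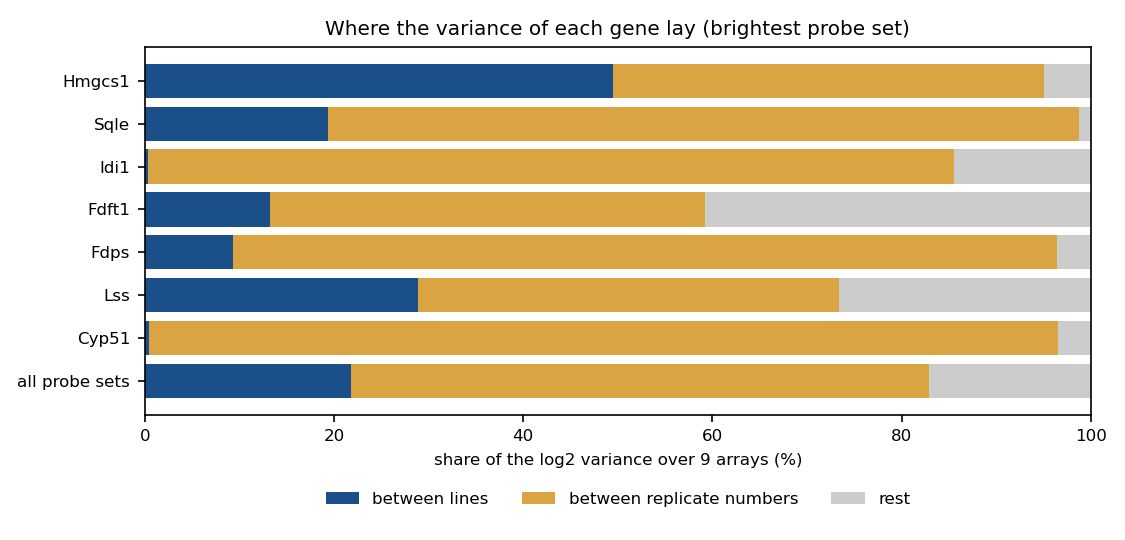
Share of the sum of squares (percent) of log2 intensity over the 9 arrays that goes with line, with replicate number and with neither, for the 7 genes at their brightest probe set and for all probe sets together. Replicate number holds 96.1% for Cyp51 and 45.5% for Hmgcs1, beside 61.1% over all probe sets.

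SV5 was set against NIH 3T3 to ask how the T antigen clone differs from its parent. Sqle and Fdps had the largest positive differences, 0.66 and 0.8 on the log2 scale, and both were higher in SV5 in 3 of 3 pairs of equal replicate number. Neither was called, and 0 of the 7 genes were called, where 0.0484% of all genes were. At an unadjusted limma p under 0.05, 2 of 7 were higher and 0 lower, where 9.07% of all genes were higher and 5.95% lower. In 3 of 3 pairs, 2 of 7 were higher and 1 lower, where 13.4% of all genes were higher and 17.3% lower. The 2 lines overlapped for all 7, where 4.58% of all genes showed no overlap. The median difference of the 7 was 0, beside -0.03 over all genes, and it ran from -0.16 without NIH 3T3 replicate 2 to 0.17 without NIH 3T3 replicate 1.

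The Sqle difference of 0.66 had a 95% interval of 0.36 to 0.95, with pairs of 0.65, 0.84 and 0.47 and an adjusted p of 0.12. That is a 1.58-fold higher level in SV5. The Fdps difference of 0.8 had an interval of 0.25 to 1.36, with pairs of 1.35, 0.77 and 0.29 and an adjusted p of 0.21. It was 0.53 without NIH 3T3 replicate 1, and 0.22 when averaged with the second Fdps probe set, which lies at the level of the bacterial controls. The other 5 enzymes had smaller differences, on both sides of 0. Hmgcs1 differed by -0.12 (-0.4 to 0.15), Idi1 by 0 (-0.49 to 0.48) and Fdft1 by -0.35 (-1.13 to 0.43). Lss differed by -0.36 (-0.77 to 0.06) and Cyp51 by 0.08 (-0.3 to 0.46).

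SV5-NN4 was set against SV5 to ask what accompanies added wild-type Nras in cells that carry T antigen. Fdps, Sqle and Hmgcs1 had the most negative differences, -0.8, -0.6 and -0.29, each lower in SV5-NN4 in 3 of 3 pairs. The fibroblast markers had a median of -1.05 in the same comparison and of 0.25 in SV5 against NIH 3T3. Whether the 2 patterns are linked was not tested. Of the 7 cholesterol genes 0 were called, where 1.05% of all genes were. At an unadjusted p under 0.05, 3 of 7 were lower and 0 higher, where 7.33% of all genes were lower and 7.32% higher. In 3 of 3 pairs, 3 of 7 were lower and 0 higher, where 20.6% of all genes were lower and 22.0% higher. The 2 lines overlapped for all 7, where 9.06% of all genes showed no overlap. The median of the 7 was -0.11, beside 0.01 over all genes, and leaving out single arrays gave -0.31 without SV5 replicate 3, -0.25 without SV5 replicate 2, -0.18 without SV5-NN4 replicate 3 and -0.17 without SV5-NN4 replicate 2.

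For Sqle the interval was -0.9 to -0.31, the pairs were -0.56, -0.61 and -0.64 and the adjusted p was 0.087, a level 1.52-fold lower in SV5-NN4. This gene sat nearest the threshold. It was called with only the 2 lines in the fit (adjusted p = 0.026) and without NIH 3T3 replicate 1 (adjusted p = 0.049), and the adjusted p was 1 without the block. For Fdps the interval was -1.36 to -0.24, the pairs were -0.81, -1.24 and -0.35 and the adjusted p was 0.19, and the difference was -0.37 when averaged with the second probe set. For Hmgcs1 the interval was -0.57 to -0.02 and the adjusted p 0.34. Idi1 differed by -0.06 (-0.55 to 0.43), Fdft1 by -0.11 (-0.89 to 0.67), Lss by 0.32 (-0.09 to 0.73) and Cyp51 by -0.11 (-0.5 to 0.27). The same 3 SV5 arrays enter this comparison and the one with NIH 3T3, so a low or high SV5 value moves both in opposite directions.

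SV5-NN4 was also set against NIH 3T3, the clone with both genes against the parent. Hmgcs1 was the 1 gene of the 7 whose arrays did not overlap between these lines, where 7.11% of all genes did not, with a difference of -0.42 and pairs of -0.48, -0.26 and -0.51. Its interval was -0.69 to -0.14 and its adjusted p 0.13, so it was not called. Of the 7 genes 0 were called, where 1.96% of all genes were. At an unadjusted p under 0.05, 1 of 7 was lower and 0 higher, where 8.04% of all genes were lower and 11.3% higher. Fdft1 had the most negative difference of the 7, -0.46 (-1.24 to 0.32), but its pairs of 0.19, -0.55 and -1.02 differed in sign. Sqle differed by 0.05 (-0.24 to 0.35) and Fdps by 0 (-0.55 to 0.56), intervals that leave room for a difference in either direction. Idi1 differed by -0.06 (-0.55 to 0.43), Lss by -0.04 (-0.45 to 0.38) and Cyp51 by -0.03 (-0.42 to 0.35). In 3 of 3 pairs, 1 of 7 was lower and 0 higher, where 19.6% of all genes were lower and 18.0% higher. The median of the 7 was -0.04, beside -0.03 over all genes.

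**Figure D3:**
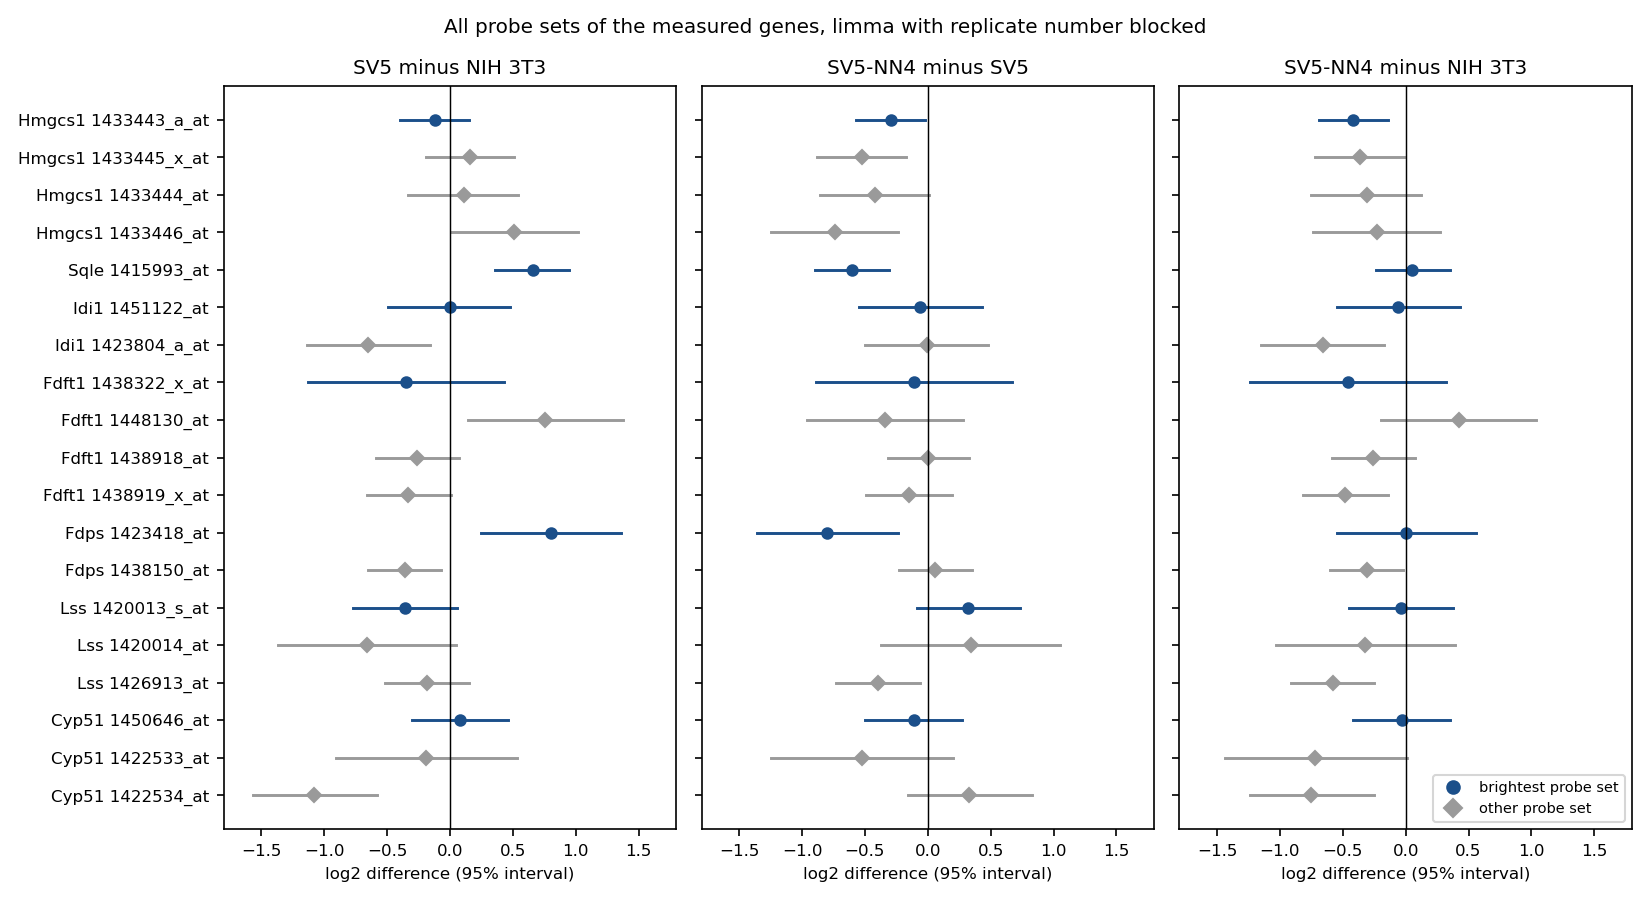
Log2 difference (points) with its 95% interval (bars) for all 19 probe sets of the 7 genes in the 3 comparisons, from limma with replicate number blocked, with the brightest probe set of a gene as a blue circle and the others as grey diamonds. Sqle lies at 0.66 in SV5 against NIH 3T3, at -0.6 in SV5-NN4 against SV5 and at 0.05 in SV5-NN4 against NIH 3T3.

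Other probe sets of the same genes gave a mixed picture, and 0 of the 19 were called in any comparison, where 0.0617% of all probe sets were called in SV5 against NIH 3T3, 0.864% in SV5-NN4 against SV5 and 1.65% in SV5-NN4 against NIH 3T3. The smallest adjusted p among the 19 was 0.12, 0.087 and 0.1 in that order of comparisons. In SV5 against NIH 3T3, 3 of the 19 were higher and 6 lower in 3 of 3 pairs, where 12.9% and 17.4% of all probe sets were. In SV5-NN4 against SV5, 1 was higher and 9 lower, where 20.9% and 19.6% were. In SV5-NN4 against NIH 3T3, 0 were higher and 11 lower, where 16.9% and 19.0% were. These 19 are not independent, since they share 7 genes. The lines did not overlap for 2 of the 19 in SV5 against NIH 3T3, 0 in SV5-NN4 against SV5 and 3 in SV5-NN4 against NIH 3T3, where 4.55%, 7.93% and 6.45% of all probe sets did not.

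The 4 probe sets of Hmgcs1 all lay lower in SV5-NN4 than in SV5, by -0.74 to -0.29, each in 3 of 3 pairs. Against NIH 3T3 they lay lower by -0.42 to -0.23, but in 3 of 3 pairs for only 3 of the 4. In SV5 against NIH 3T3 they disagreed, with -0.12 at the brightest and 0.16, 0.11 and 0.51 at the others.

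The dimmest Cyp51 probe set read 34.93, 69.02 and 72.36 in SV5-NN4, 31.39, 50.78 and 54.09 in SV5, and 94.24, 86.27 and 103.6 in NIH 3T3. All SV5-NN4 and all SV5 arrays lay below all NIH 3T3 arrays, with differences of -0.75 (adjusted p = 0.13) and -1.08 (adjusted p = 0.12). The brightest Cyp51 probe set showed no such separation. The second brightest, at a mean log2 level of 8.94, differed by -0.72 in SV5-NN4 against NIH 3T3 (adjusted p = 0.3). In SV5-NN4 against SV5 it differed by -0.52 (adjusted p = 0.6). It was lower in 3 of 3 pairs in both comparisons, though the lines overlapped. The second Idi1 probe set read 661, 792.3 and 983.6 in SV5-NN4, 927.9, 796.4 and 713.9 in SV5, and 1513, 1000 and 1347 in NIH 3T3. As at the dimmest Cyp51 probe set, both clones lay wholly below NIH 3T3. The differences were -0.66 (adjusted p = 0.17) and -0.65 (adjusted p = 0.24), beside -0.06 and 0 at the brightest Idi1 probe set.

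Signs also disagreed within Fdft1, Fdps, Lss and Cyp51. In SV5 against NIH 3T3 Cyp51 differed by 0.08 at its brightest probe set and by -0.19 and -1.08 at the others. Fdft1 differed by 0.76 in SV5 against NIH 3T3 at its second brightest probe set, beside -0.35 at its brightest probe set, whose name ends in x_at, the manufacturer's mark for probes that may match other transcripts. The second Fdps probe set differed by -0.36, beside 0.8, but with a mean log2 level of 3.85 it lay within the 3.32 to 3.92 of the 9 bacterial control probe sets. The dimmest Lss probe set differed by -0.4 in SV5-NN4 against SV5, beside 0.32, and by -0.58 in SV5-NN4 against NIH 3T3 (adjusted p = 0.1), lower in 3 of 3 pairs.

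After the replicate means were subtracted, the 7 genes followed each other only loosely over the 9 arrays. The Pearson r of a gene with the mean of the other 6 was 0.48 for Hmgcs1, 0.44 for Cyp51, 0.36 for Sqle, 0.34 for Fdps and 0.25 for Fdft1. It was -0.09 for Idi1 and -0.28 for Lss. Among 7135 genes at or above the median level, those most like the mean of the 7 were Npr3 with an r of 0.97 and Calml4, Rbm5, Zmat3 and Wdfy2 with 0.96. The most opposite were Ctage5 with -0.98, Nav2 with -0.97 and Hmga2 with -0.96. These values describe 9 arrays that share lines and replicate numbers.

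The wider pathway was read from lists of related genes, also chosen with earlier results of these data known. Of 12 measured enzymes of the pathway outside the 7, 0 were called in each comparison. At an unadjusted p under 0.05, 2 of 12 were higher in SV5 than in NIH 3T3, where 9.07% of all genes were, and 3 of 12 were lower in SV5-NN4 than in SV5, where 7.33% were. In SV5-NN4 against NIH 3T3, 1 of 12 was lower, where 8.04% were. Msmo1, a sterol methyl oxidase acting after Cyp51, read 530.4, 174.9 and 780.3 in SV5-NN4, 1099, 392.2 and 1621 in SV5, and 656.3, 132 and 1104 in NIH 3T3. Within each replicate number SV5 was the brightest line, as for Sqle. The difference was 0.95 (0.47 to 1.44, adjusted p = 0.14) in SV5 against NIH 3T3 and -1.09 (-1.58 to -0.6, adjusted p = 0.071) in SV5-NN4 against SV5. Nsdhl, the dehydrogenase that works beside it, differed by 0.5 (adjusted p = 0.18) and -0.45 (adjusted p = 0.19) in the same comparisons. Medians of the 12 were 0.03, -0.03 and 0, beside -0.03, 0.01 and -0.03 over all genes, for SV5 against NIH 3T3, SV5-NN4 against SV5 and SV5-NN4 against NIH 3T3.

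Of the genes that encode, process or retain SREBPs, 5 were measured (Srebf1, Srebf2, Scap, Insig2 and Mbtps1) and 0 called in any comparison. At their brightest probe sets all 5 had positive differences in SV5 against NIH 3T3, with a median of 0.46 and 4 of 5 at an unadjusted p under 0.05, where 9.07% of all genes were higher. Other probe sets did not all share that sign. Those of Mbtps1, a protease that cleaves SREBPs, differed by -0.18 and -0.25, beside 0.53 at its brightest. The Mbtps1 probe set at -0.25 lay at the level of the bacterial controls. Those of Insig2 differed by 0.37 and -0.05. Scap, the escort, read 589.6, 247.1 and 484.6 in SV5-NN4, 715.8, 292.9 and 563.8 in SV5, and 190.3, 190.1 and 465.3 in NIH 3T3. Its difference was 0.93 in SV5 against NIH 3T3, -0.25 in SV5-NN4 against SV5 and 0.69 in SV5-NN4 against NIH 3T3. Srebf1, which encodes an SREBP, differed by 0.46, -0.21 and 0.26, and Insig2, a relative of Insig1, by 0.39, -0.42 and -0.03.

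Among 10 measured genes of cholesterol uptake and transport, 0 were called in SV5 against NIH 3T3 or in SV5-NN4 against SV5, and 1 rose and 1 fell in SV5-NN4 against NIH 3T3, where 1.96% of all genes were called. Npc2, which hands cholesterol out of lysosomes, read 4061, 7660 and 5811 in SV5-NN4, 5281, 8585 and 6518 in SV5, and 6510, 11960 and 8887 in NIH 3T3. It fell by 0.65 on the log2 scale in SV5-NN4 against NIH 3T3 (interval -0.91 to -0.38, adjusted p = 0.046), with pairs of -0.68, -0.64 and -0.61. A second Npc2 probe set differed by -0.09. Tmem97, a sterol-responsive membrane protein, read 122.2, 134.6 and 406.4 in SV5-NN4, 104.4, 120.7 and 302.2 in SV5, and 79.01, 88.55 and 224.1 in NIH 3T3. It rose by 0.69 in SV5-NN4 against NIH 3T3 (interval 0.42 to 0.97, adjusted p = 0.045), with pairs of 0.62, 0.6 and 0.86. Both had an adjusted p of 1 without the block, and leaving out any array other than NIH 3T3 replicate 1 ended both calls, with log2 differences of -0.67 to -0.6 for Npc2 and 0.61 to 0.74 for Tmem97. Scarb1, a lipoprotein receptor, differed by -0.62 (adjusted p = 0.14), 0.57 (adjusted p = 0.11) and -0.05 in the 3 comparisons at its brightest probe set. One other Scarb1 probe set was singled out after its values were seen. It rose by 0.97 in SV5-NN4 against NIH 3T3 (adjusted p = 0.02, and 0.57 without the block), where the remaining one differed by 0.14. In SV5 against NIH 3T3 the one singled out differed by 0.55, against the sign of the brightest, and the remaining one by -0.46. The names of the brightest and of the remaining one end in x_at, and that of the one singled out does not.

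Of 5 measured genes of sterol efflux, 0 were called. Abca1, the cholesterol exporter, read 33.75, 87.13 and 66.08 in SV5-NN4, 60.95, 177.9 and 177.6 in SV5, and 69.09, 137.1 and 84.01 in NIH 3T3. Its SV5-NN4 level was the lowest within each replicate number. The difference was -1.09 from SV5 (adjusted p = 0.08) and -0.67 from NIH 3T3. Dimmer Abca1 probe sets differed by -0.18 and 0.18 from SV5 and by -0.13 and 0.16 from NIH 3T3. The one with positive differences lay at the level of the bacterial controls.

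**Figure D4:**
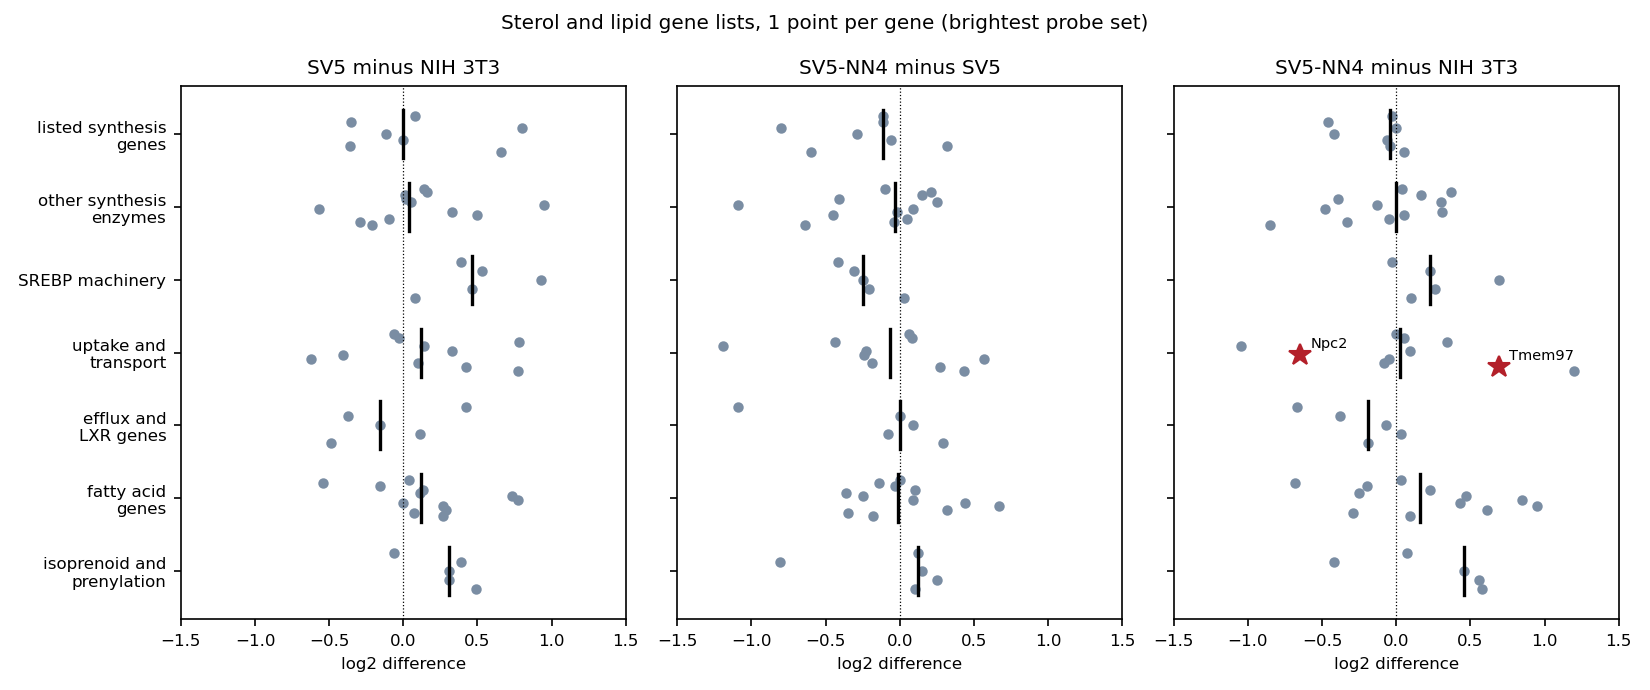
Log2 differences of single genes (points) in the 3 comparisons for the 7 genes and for lists of other synthesis, SREBP, uptake, efflux, fatty acid and prenylation genes, each at its brightest probe set, with a black bar at each list's median and a red star for a called gene. All 5 genes that encode, process or retain SREBPs lie above 0 in SV5 against NIH 3T3, and the called genes are Npc2 and Tmem97 in SV5-NN4 against NIH 3T3.

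RNA quality differed between arrays. The log2 ratio of 3′ to 5′ Actb probe sets was 4.07, 4.63 and 3.66 in SV5-NN4, 3.73, 4.32 and 2.42 in SV5, and 4.25, 4.43 and 5.06 in NIH 3T3. For Gapdh it was 2.66, 3.52 and 3.05 in SV5-NN4, 2.45, 3.03 and 2.36 in SV5, and 2.65, 2.99 and 5.21 in NIH 3T3. Within each replicate number the Actb ratio was lowest in SV5, the line in which Sqle, Fdps and Msmo1 were brightest, and its part in those results was not tested.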

How the data were processed

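Total RNA was extracted with Trizol and labelled by the Affymetrix one-cycle procedure, per the labels' protocols. What the authors deposited are linear-scale intensities, made with RMA per the submitters' processing notes, which give no version. Array medians ran from 56.2 to 62.35 and upper quartiles from 165.2 to 239.7. The 3 arrays per line limit the precision, and nothing states that they came from separate cultures, so p-values may measure technical spread only.

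Each intensity plus a pseudocount of 1 was put on the log2 scale, and all 22690 probe sets were fitted with limma 3.58.1 in R 4.3.3, with 1 mean per line and the replicate number as a block, leaving 4 residual degrees of freedom. Benjamini-Hochberg adjustment ran over all probe sets. The fit was tested on data simulated from its own model with independent noise, which cannot show whether that model suits these arrays. Equal numbers were taken as pairs because the deviations from line means correlated at 0.26 to 0.84 in all 9 same-number pairs, against -0.73 to 0.11 in the 18 others. A gene stands at its single-symbol probe set of highest mean. Named were the 8 genes, every called gene of the lists, or otherwise up to 4 per list of highest mean level, and the genes most like or most opposite to the mean. Members and lists were chosen with earlier results of these data known. Alternatives covered the block, each array left out, the lines fitted, pseudocount, filter, normalization, intensity trend and averaging of probe sets. Promoter sequences are from RefSeq.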

Additional observations from a re-analysis of the deposited data

How the results depend on the processing

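With no replicate block, 0 of the 7 genes were called in each comparison, and probe sets called over the whole table were 1, 19 and 18, beside 14, 196 and 375 with it, for SV5 against NIH 3T3, SV5-NN4 against SV5 and SV5-NN4 against NIH 3T3. Over all 17 alternatives these totals ran from 0 to 49, 14 to 1504 and 13 to 1239. Of the 7 genes 0 were called throughout for SV5 against NIH 3T3 and for SV5-NN4 against NIH 3T3. For SV5-NN4 against SV5 the count was 1 (Sqle) with only the 2 lines fitted, and 0 to 1 with an array left out.

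With an array left out, the median of the 7 genes ran from -0.16 to 0.17 in SV5 against NIH 3T3 and from -0.31 to -0.11 in SV5-NN4 against SV5. In SV5-NN4 against NIH 3T3 it was -0.14 after quantile normalization, -0.31 with a gene's probe sets averaged and -0.2 to 0.03 with an array left out. Quantile normalization turned Cyp51 in SV5 against NIH 3T3 to -0.03 and Sqle in SV5-NN4 against NIH 3T3 to -0.03. Averaging probe sets turned Hmgcs1 to 0.16 and Cyp51 to -0.4 in SV5 against NIH 3T3. With an array left out, signs turned in SV5-NN4 against SV5 for Idi1 (-0.17 to 0.1), Fdft1 (-0.38 to 0.3) and Cyp51 (-0.26 to 0.02). They turned in SV5-NN4 against NIH 3T3 for Sqle (-0.04 to 0.15), Idi1 (-0.31 to 0.18), Lss (-0.15 to 0.07) and Cyp51 (-0.2 to 0.06). In SV5 against NIH 3T3 they turned for Cyp51 (-0.09 to 0.22). Idi1 in SV5 against NIH 3T3 (-0.25 to 0.24) and Fdps in SV5-NN4 against NIH 3T3 (-0.27 to 0.23) took either sign. Both were at 0 with all arrays. Fdps kept its sign in SV5 against NIH 3T3 (0.53 to 1.04) and in SV5-NN4 against SV5 (-1.04 to -0.57), and was 0.22 and -0.37 there with probe sets averaged. The second Fdps probe set, at the level of the bacterial controls, differed by -0.36 and 0.06 in those comparisons. What made signs turn with an array left out was not tested. Npc2 kept its call in 4 of 17 settings and Tmem97 in 5 of 17. Both genes and their comparison were chosen for this after seeing the data.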

Other observations

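Genes that use the isoprenoids of the pathway were also read. Of 5 measured, 0 were called in any comparison, and 3 were higher in SV5-NN4 than in NIH 3T3 at an unadjusted limma p under 0.05, where 11.3% of all genes were, with a median of 0.46 beside -0.03 over all genes. Zmpste24, a protease of prenylated proteins, read 1859, 1046 and 1824 in SV5-NN4 and 1370, 668.7 and 1146 in NIH 3T3, a difference of 0.58 (adjusted p = 0.07). Fnta, a subunit of the transferase that prenylates Ras, read 563.9, 513.5 and 912.5 in SV5-NN4 and 993.6, 913.5 and 1571 in SV5. Each SV5-NN4 array lay below the SV5 array of its number, with a difference of -0.81 (adjusted p = 0.1).

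All 12 listed fatty acid genes under SREBP control were measured and 0 were called. In SV5-NN4 against NIH 3T3, 8 of 12 had positive differences, with a median of 0.16 beside -0.03 over all genes. At an unadjusted p under 0.05, 4 were higher and 1 lower, where 11.3% of all genes were higher and 8.04% lower. The 4, named after their values were seen, were Me1, which makes NADPH (0.95, adjusted p = 0.08), the desaturases Fads2 (0.85, adjusted p = 0.2) and Fads1 (0.47, adjusted p = 0.17), and Mid1ip1 (0.61, adjusted p = 0.14). A second Fads2 probe set differed by only 0.09, and a second Me1 probe set by 0.66. Fasn, the fatty acid synthase, differed by 0.43. The 1 lower gene was Acly. Acly, which makes cytosolic acetyl-CoA, read 1134, 2573 and 3176 in SV5-NN4 and 2593, 3129 and 4663 in NIH 3T3. It lay lower in SV5-NN4 within each replicate number, by -0.68 on the log2 scale (adjusted p = 0.12). The name of that probe set ends in x_at. The next brightest Acly probe set differed by -0.12, with pairs of -0.67, 0.51 and -0.18. The remaining ones differed by -0.08, -0.1 and 0.05. Those at -0.1 and 0.05 had line means between 3.16 and 3.33, at or below the level of the bacterial controls.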
